A study of Mus musculus with 21 samples.

Results

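The 10 genes described are those of meiotic sister chromatid cohesion and its release in the mouse oocyte. They were taken by name from the table of read counts over all exons, through their Ensembl identifiers, out of 54232 genes. *Rec8*, *Stag3* and *Smc1b* encode cohesin subunits of meiosis, *Smc1a*, *Smc3* and *Rad21* subunits used in most dividing cells, *Sgo2a* a protector of centromeric cohesion, *Espl1* separase, *Pttg1* the separase inhibitor securin, and *Wapl* a factor that takes cohesin off chromatin. All 10 were in the table. Of these, 9 had a count in at least 3 libraries and were tested, and *Rec8* was counted in 1 library only.

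Poly(A) RNA was amplified and sequenced from 21 libraries of 3 fully grown germinal vesicle (GV) oocytes, which are arrested in prophase of the first meiotic division. The females were 3 to 4 months old, on a C57BL/6 background, and were injected with eCG or HyperOva 48 h before collection. The series asks how oocytes fare with less *Kif11*, a kinesin of the spindle. Its alleles are wild type (wt), floxed (fl) and deleted in every cell (del). The control was wt/fl without Cre (4 libraries). The wt/fl Spo11-Cre group (5 libraries) loses its floxed allele through a Cre under the promoter of a gene that is active early in meiotic prophase. The fl/del group (4 libraries) has 1 intact allele from conception, and in fl/del Spo11-Cre (4 libraries) Cre removes that one as well. Oocytes with both alleles floxed carried Cre under the *Gdf9* promoter (2 libraries) or the *Zp3* promoter (2 libraries), both of which drive expression in growing oocytes. All groups, the control included, carry at least 1 floxed allele. The methods describe 17 libraries, which are the 4 groups without the fl/fl genotype, so in the fl/fl libraries genotype, Cre driver and library set cannot be told apart. Each mouse gave 1 or 2 libraries. Among the 17, 1 or 2 libraries share a name prefix, which may stand for the mouse, though the labels do not say so. A group may thus come from fewer mice than libraries, and the n given below counts libraries. The p-values measure the spread between libraries, some of which may be technical.

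Cohesin is a ring of an SMC1 and an SMC3 protein, a kleisin that closes it, and a STAG protein. In meiosis SMC1B, REC8 and STAG3 replace SMC1A, RAD21 and the mitotic STAG proteins in much of the complex. In mouse oocytes the rings that hold chromatids together are loaded before birth and must last until ovulation, and shugoshin with protein phosphatase 2A shields those at the centromere. At anaphase the anaphase promoting complex marks securin for destruction, which frees separase to cut the kleisin. The RNA of a fully grown oocyte is thus a store measured long after the rings were made.

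The promoters of the 3 meiotic subunits are shown because these genes set the meiotic ring apart and because their RNA, as given below, ranged from hardly detected to present in every library. Each runs from 250 bases before to 50 bases after the RefSeq transcription start (GRCm38.p6), written 5′ to 3′ on the gene's strand. Capitals mark the 6-base E-box CACGTG and the E2F-type letters GCGGGAA, searched on both strands. Among 32851 RefSeq promoters of this length, 7.15% hold the former and 4.60% the latter. *Rec8* lies at chr14:55617916-55618215 on the plus strand, *Stag3* at chr5:138280259-138280558 on the plus strand and *Smc1b* at chr15:85131908-85132207 on the minus strand.
Rec8: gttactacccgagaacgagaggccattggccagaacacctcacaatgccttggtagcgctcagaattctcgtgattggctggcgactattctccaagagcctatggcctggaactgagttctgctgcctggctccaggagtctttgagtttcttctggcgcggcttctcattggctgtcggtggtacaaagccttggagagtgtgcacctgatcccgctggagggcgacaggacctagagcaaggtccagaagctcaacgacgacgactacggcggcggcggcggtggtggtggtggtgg
Stag3: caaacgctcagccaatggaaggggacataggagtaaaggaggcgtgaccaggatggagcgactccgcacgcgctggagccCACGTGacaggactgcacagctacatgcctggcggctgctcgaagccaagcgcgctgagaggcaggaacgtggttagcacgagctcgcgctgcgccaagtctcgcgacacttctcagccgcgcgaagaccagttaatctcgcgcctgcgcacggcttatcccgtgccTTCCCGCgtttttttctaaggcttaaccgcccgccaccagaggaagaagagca
Smc1b: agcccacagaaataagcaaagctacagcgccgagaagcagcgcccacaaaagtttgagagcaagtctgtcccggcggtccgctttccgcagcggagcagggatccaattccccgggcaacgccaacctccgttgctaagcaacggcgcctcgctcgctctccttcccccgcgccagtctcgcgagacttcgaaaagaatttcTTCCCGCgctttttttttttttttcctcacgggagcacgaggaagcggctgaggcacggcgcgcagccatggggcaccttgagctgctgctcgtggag
*Stag3* held an E-box that begins at -170 from the start and an E2F-type match at -3, *Smc1b* held an E2F-type match at -48, and *Rec8* held neither. Of the other members, *Smc1a* held the E2F-type letters at 39, *Sgo2a* at 15 in 1 of its 2 promoters, and *Espl1* an E-box at -122. The *Sgo2a* match is in the window at chr1:57985090-57985389, while the window around the gene start given below, chr1:57995724-57996023, held neither. Neither was found in the windows of *Smc3*, *Pttg1* and *Wapl*, and no promoter was available for *Rad21*. These are matches of letters and not binding sites.

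The libraries held between 7205010 and 18454549 counts, and no 2 were identical. All 12 oocyte markers together made 24669 to 31519 counts scaled to a library total of 1000000 (CPM). The 18 markers of granulosa and cumulus cells summed to 73.5 to 127 CPM, of which *Cyp19a1* made 46.5 to 80.5 CPM and *Nr5a2* 21.1 to 44.8 CPM, while *Foxl2* and *Ptx3* were at 0 in all libraries. Over all exons *Kif11* was at 71.2% of its wt/fl level in the wt/fl Spo11-Cre group. This difference had an adjusted p of 0.237 in edgeR's quasi-likelihood test. It stood at 34.5% in fl/del, 5.17% in fl/del Spo11-Cre, 14.5% with Gdf9-Cre and 17.7% with Zp3-Cre. Replicate 1 of fl/fl Zp3-Cre stood apart, with a median correlation of 0.974 to the other libraries (log scale), and the shallowest library, fl/del replicate 3, followed at 0.977. The others lay between 0.980 and 0.985. Mitochondrial transcripts made 0.268% to 0.510% of counts in the fl/fl libraries and 0.168% to 0.281% in the 17 others.

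In the authors' TPM values, which divide counts by gene length before scaling, the members covered a wide range. *Pttg1* was at 2573 TPM on average over 21 libraries, higher than 99.8% of the genes counted in at least 3 libraries. *Smc3* followed at 145 TPM, *Smc1a* at 49.6 TPM and *Wapl* at 39.6 TPM. *Rad21* was at 20.9 TPM, *Smc1b* at 10.4 TPM, *Espl1* at 8.17 TPM and *Sgo2a* at 6.07 TPM. The meiotic STAG gene *Stag3*, at 1.03 TPM, and *Rec8* came last. In wt/fl oocytes the ranges of the 4 libraries did not overlap between neighbours in this order. The exceptions were *Smc1b* with *Espl1* and *Espl1* with *Sgo2a*, whose ranges overlapped. Mean TPM in wt/fl was 15.3 times as high for *Pttg1* as for *Smc3*, 3.10 times as high for *Smc3* as for *Smc1a*, and 9.15 times as high for *Sgo2a* as for *Stag3*. *Smc3* was above *Smc1a* in 21 of 21 libraries, and *Smc1a* above *Wapl* in 19.

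**Figure D1:**
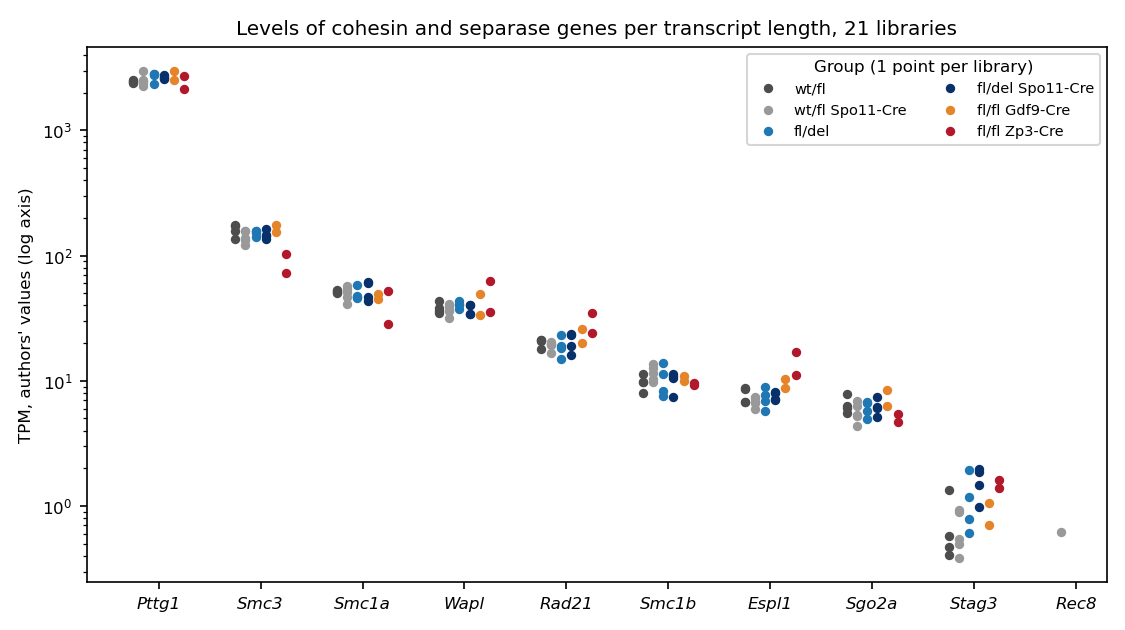
Level of each member on the y axis, in TPM on a log scale, with 1 point per library coloured by group; values of 0 are not drawn. *Pttg1* lies at 2137 TPM or more in all 21 libraries, *Stag3* between 0.384 and 1.96 TPM, and *Rec8* has a point in 1 library only.

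*Rec8*, the kleisin of meiotic cohesin (ENSMUSG00000002324, chromosome 14, 55618037 to 55625395, plus strand), was at 0 counts in 20 of 21 libraries. The exception was wt/fl Spo11-Cre replicate 2, with 10 counts or 0.766 CPM. A count of 0 allows a level of up to 0.163 to 0.416 CPM, depending on the library (the limit of 3 counts, for counting error only). Pooled over all 287444748 counts of the series *Rec8* stood at 0.0348 CPM. Its RNA was thus not detectable at this depth in 5 of the 6 groups, and the 10 counts belong to 1 library, in which 130 genes were counted that no other library holds. No exonic base of *Rec8* overlaps another gene. The gene was left out of the tests, and no fold change is given for it.

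*Stag3*, the STAG subunit of meiosis (ENSMUSG00000036928, chromosome 5, 138280240 to 138312393, plus strand), was detected in every library but with only 12 to 74 counts. It was at 3.15, 0.943, 1.36 and 1.09 CPM in wt/fl, and at 1.30, 0.920, 1.19, 2.13 and 2.32 CPM in wt/fl Spo11-Cre. It was at 1.85, 1.43, 4.72 and 2.79 CPM in fl/del, and at 2.35, 3.62, 4.44 and 4.64 CPM in fl/del Spo11-Cre. The fl/del Spo11-Cre libraries all lay above those of wt/fl Spo11-Cre and above 3 of the 4 wt/fl libraries, while fl/del overlapped both. Means were 1.64 ± 1.02 CPM (SD, n = 4) in wt/fl and 3.76 ± 1.04 CPM (SD, n = 4) in fl/del Spo11-Cre. On the log2 scale the latter was 1.19 ± 0.52 (SE) higher, with an adjusted p of 0.431 and an unadjusted p of 0.0266 in edgeR's quasi-likelihood test. Against wt/fl Spo11-Cre the difference was 1.22 ± 0.49, with an adjusted p of 0.702. Neither passed the threshold, an adjusted p under 0.05 over all genes. *Stag3* was at 2.42 and 1.74 CPM with Gdf9-Cre and at 3.85 and 3.18 CPM with Zp3-Cre.

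*Smc1b*, the SMC1 protein of meiosis (ENSMUSG00000022432, chromosome 15, 85064689 to 85131964, minus strand), was at 16.0 ± 2.38 CPM in wt/fl (SD, n = 4). It was at 13.3, 15.8, 19.1 and 15.9 CPM in these libraries, and at 19.2, 21.5, 17.3, 16.6 and 23.7 CPM in wt/fl Spo11-Cre. The ranges overlapped, and the difference of 0.32 ± 0.19 on the log2 scale had an adjusted p of 0.440. The fl/del libraries ran from 12.4 to 23.7 CPM, which holds both the lowest and the highest value of all 21, and fl/del Spo11-Cre from 12.9 to 18.8 CPM. The 4 fl/fl libraries stood between 15.4 and 17.6 CPM, inside the range of the other groups. The ratio of *Smc1b* to its mitotic paralog *Smc1a*, in TPM, was 18.8% ± 3.08 in wt/fl (SD, n = 4) and between 15.4% and 33.1% over all libraries, so the mitotic SMC1 transcript was the more abundant one in each.

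*Smc3* (ENSMUSG00000024974, chromosome 19, 53600398 to 53645833, plus strand) encodes the SMC subunit that meiotic and mitotic rings share, and it passed the test in more comparisons than any other member. It was at 401, 348, 394 and 304 CPM in wt/fl, at 357, 367, 318, 306 and 292 CPM in wt/fl Spo11-Cre, at 345, 357, 333 and 359 CPM in fl/del, and at 325, 324, 334 and 369 CPM in fl/del Spo11-Cre. These 4 groups overlapped. With Gdf9-Cre *Smc3* was at 390 and 369 CPM, within the range of wt/fl, but with Zp3-Cre it was at 170 and 227 CPM, below each of the other 19 libraries. The Zp3-Cre mean of 198 ± 40.5 CPM (SD, n = 2) was 54.8% of that of wt/fl, and the Gdf9-Cre mean of 379 ± 14.5 CPM (SD, n = 2) was 105%. *Smc3* lies on the chromosome that also carries *Kif11* (37376403 to 37421859, plus strand).

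**Figure D2:**
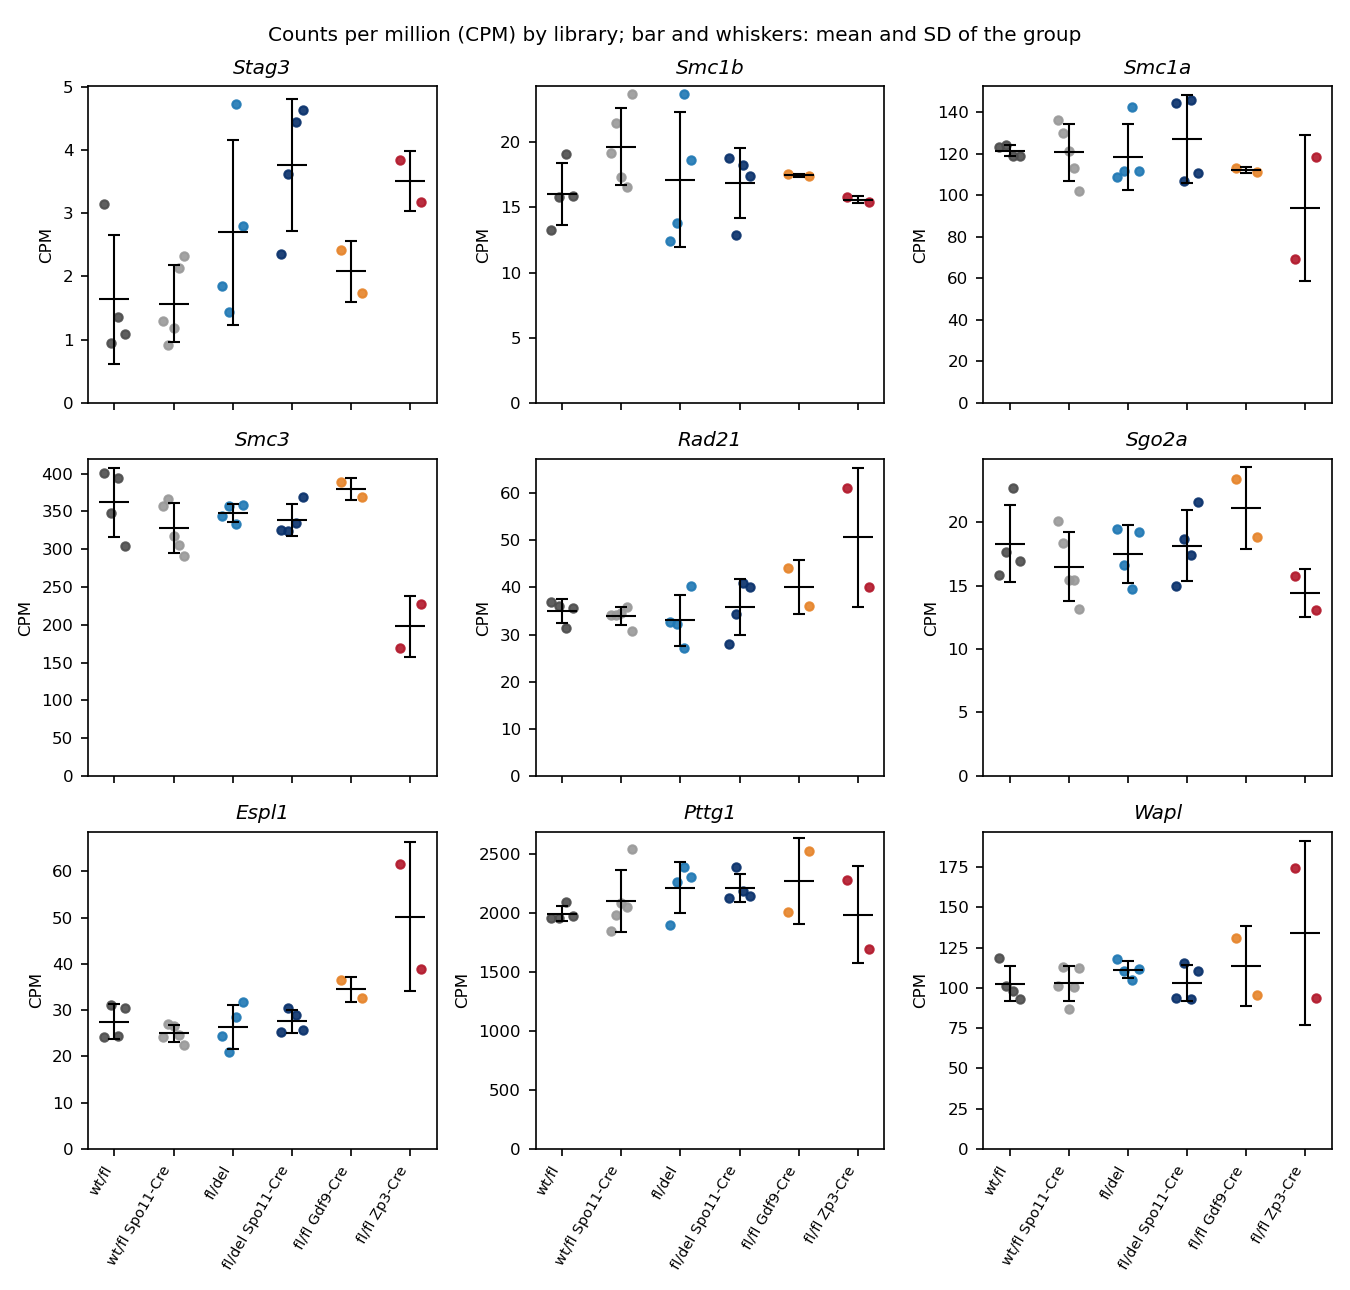
CPM of the 9 tested members by group, with 1 panel per gene, 1 point per library, and a bar and whiskers at the mean and SD of the group. The 2 fl/fl Zp3-Cre points of *Smc3*, at 170 and 227 CPM, lie below all others, while the remaining groups overlap in most panels.

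*Smc1a* (ENSMUSG00000041133, chromosome X, 152016428 to 152062694, plus strand), the SMC1 protein of mitotic cohesin, was at 121 ± 2.64 CPM in wt/fl (SD, n = 4). The 17 libraries without the fl/fl genotype ran from 102 to 146 CPM. It was at 113 and 111 CPM with Gdf9-Cre, and at 69.1 and 119 CPM with Zp3-Cre, the lower value being that of the library that stood apart. The other Zp3-Cre library was inside the range of the remaining groups.

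*Rad21*, the mitotic kleisin (ENSMUSG00000022314, chromosome 15, 51962240 to 51991747, minus strand), was at 35.0 ± 2.47 CPM in wt/fl (SD, n = 4) and between 27.1 and 40.9 CPM in the 17 libraries. With Zp3-Cre it was at 61.0 and 40.2 CPM, and with Gdf9-Cre at 44.1 and 36.1 CPM. The highest value again came from Zp3-Cre replicate 1. *Rad21* was detected in every library, next to a *Rec8* signal in 1, and in TPM it was at 12.8% ± 2.11 of *Smc3* in wt/fl (SD, n = 4). In the Zp3-Cre libraries this ratio was 47.1% and 23.2%, against 10.4% to 16.0% in the 17 libraries. The ratio has *Smc3* in its denominator and moves with it.

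*Sgo2a*, shugoshin 2 (ENSMUSG00000026039, chromosome 1, 57995971 to 58025899, plus strand), was at 18.3 ± 3.02 CPM in wt/fl (SD, n = 4) and between 13.1 and 23.4 CPM in all libraries. Its level is uncertain, since 2455 of its 7007 exonic bases (35.0%) overlap *Kctd18* on the other strand and the library kit did not mark strand. *Kctd18* itself was at 1.88 ± 0.912 CPM in wt/fl (SD, n = 4). The counts of *Sgo2a* over all exons were 1.67 times those of the second count table, where the other members stood at 1.95 to 2. Both fl/fl Zp3-Cre libraries, at 15.8 and 13.1 CPM, lay below the Gdf9-Cre ones at 23.4 and 18.8 CPM. The 17 libraries of the other groups ran from 13.2 to 22.7 CPM, so that Zp3-Cre replicate 2 was the lowest and Gdf9-Cre replicate 1 the highest of the 21.

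*Espl1*, the protease that cuts the kleisin (ENSMUSG00000058290, chromosome 15, 102296266 to 102324357, plus strand), was at 24.2, 31.0, 24.5 and 30.4 CPM in wt/fl. It ran from 22.4 to 27.1 CPM in wt/fl Spo11-Cre, from 20.9 to 31.7 CPM in fl/del and from 25.2 to 30.4 CPM in fl/del Spo11-Cre. With Gdf9-Cre it was at 36.4 and 32.5 CPM, and with Zp3-Cre at 61.5 and 38.8 CPM. All 4 fl/fl libraries thus lay above the 17 others, and both Zp3-Cre libraries above both Gdf9-Cre ones. The share of all genes whose groups separate in this way was not counted, for *Espl1* or for the other members. The means were 27.5 ± 3.68 CPM in wt/fl (SD, n = 4), 34.5 ± 2.76 CPM with Gdf9-Cre (SD, n = 2) and 50.2 ± 16.0 CPM with Zp3-Cre (SD, n = 2).

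*Pttg1* (ENSMUSG00000020415, chromosome 11, 43420250 to 43426251, minus strand), whose product securin holds separase inactive, was at 1958, 1958, 2094 and 1980 CPM in wt/fl. It ran from 1853 to 2547 CPM in wt/fl Spo11-Cre, from 1905 to 2394 CPM in fl/del and from 2131 to 2396 CPM in fl/del Spo11-Cre. The fl/del Spo11-Cre libraries all lay above those of wt/fl. Their difference was 0.15 ± 0.08 on the log2 scale, with an adjusted p of 0.542, so it did not pass. In TPM, *Pttg1* was 322 ± 48.9 times as high as *Espl1* in wt/fl (SD, n = 4). With Zp3-Cre the ratio was 162 and 191, the lowest of all libraries, while *Pttg1* itself stood at 2283 and 1697 CPM there, on both sides of the wt/fl values.

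*Wapl* (ENSMUSG00000041408, chromosome 14, 34673928 to 34747983, plus strand), which opens the ring to release it, was at 103 ± 11.0 CPM in wt/fl (SD, n = 4) and between 87.0 and 118 CPM in the 17 libraries. With Gdf9-Cre it was at 131 and 95.7 CPM, and with Zp3-Cre at 174 and 93.7 CPM. Replicate 1 was the higher one with each driver, and the other library of the pair stood inside the range of the 17.

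**Figure D3:**
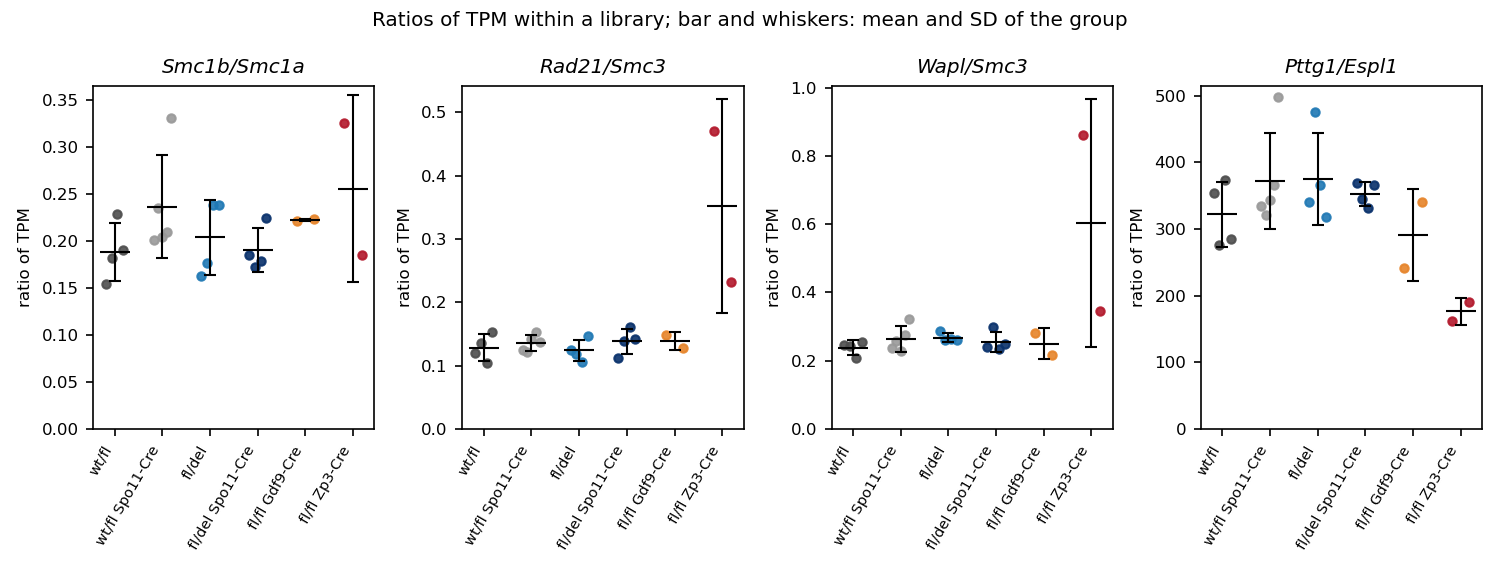
Ratios of members to one another in TPM by group, with 1 point per library and a bar and whiskers at the mean and SD of the group. In the fl/fl Zp3-Cre libraries *Rad21* stands at 47.1% and 23.2% of *Smc3* (0.471 and 0.232 on the axis), and *Pttg1* at 162 and 191 times *Espl1*.

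Over the 17 libraries the spread of a member between libraries was smallest for *Smc3*, with a coefficient of variation of 8.91%, *Pttg1* (9.14%) and *Wapl* (9.27%). It was 11.2% for *Smc1a*, 11.4% for *Rad21* and 12.0% for *Espl1*. The less abundant *Sgo2a* (14.6%), *Smc1b* (19.5%) and *Stag3* (55.7%) varied most. By Pearson's r of log2(CPM + 1) over 21 libraries, *Rad21* was most like *Espl1* (r = 0.792) and *Smc3* most like *Smc1a* (r = 0.609), and *Smc1a* was least like *Wapl* (r = -0.753). Without Zp3-Cre replicate 1 *Smc3* was most like *Sgo2a* (r = 0.728), while *Rad21* was still closest to *Espl1* (r = 0.561) and *Smc1a* still least like *Wapl* (r = -0.436). These values are descriptions over libraries that share groups, depth and library total.

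The first question of the design is whether loss of 1 or both *Kif11* alleles in the Spo11-Cre background came with a change in these genes. The contrasts below share the wt/fl, fl/del or Spo11-Cre libraries with one another and are therefore not independent. In wt/fl Spo11-Cre against wt/fl, 0 of 9 members were called by edgeR's quasi-likelihood test, 0 had an unadjusted p under 0.05, and DESeq2 also called 0, where 2.19% of 22383 genes were called. The differences of the members ran from -0.13 for *Sgo2a* to 0.32 for *Smc1b* on the log2 scale, with a median of -0.02 (0.03 over all genes). Less RNA of a gene per oocyte and fewer oocytes that contribute it cannot be told apart in libraries of pooled cells.

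In fl/del against wt/fl, 0 of 9 members were called by edgeR or DESeq2, where edgeR called 0.0223% of all genes. *Pttg1* was 0.17 ± 0.08 higher on the log2 scale, with an unadjusted p of 0.0487 and an adjusted p of 0.585 in edgeR's test, and was the 1 member with an unadjusted p under 0.05. In fl/del Spo11-Cre, which had the least *Kif11*, 0 of 9 members were called against wt/fl by edgeR or DESeq2, where edgeR called 0.197% of all genes. *Stag3* was the 1 member with an unadjusted p under 0.05. The median difference was 0.03 (0.01 over all genes). For *Smc3* the difference was -0.10 with a 95% interval from -0.28 to 0.07, for *Smc1a* 0.06 with an interval from -0.15 to 0.27, for *Smc1b* 0.07 with an interval from -0.33 to 0.46, and for *Rad21* 0.03 with an interval from -0.25 to 0.31. For *Espl1* the interval ran from -0.31 to 0.31, and for *Wapl* from -0.21 to 0.21. For *Stag3* it ran from 0.17 to 2.21 before adjustment over all genes.

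Against fl/del, fl/del Spo11-Cre gave 0 of 9 members called by edgeR or DESeq2 and 0 with an unadjusted p under 0.05, where 0.241% of genes were called. Against wt/fl Spo11-Cre it gave 0 of 9 by either tool, where 0.0357% were called, and *Stag3* was the 1 member with an unadjusted p under 0.05. The difference between the effect of Spo11-Cre in fl/del and in wt/fl oocytes was tested as an interaction. Of the 9 members 0 were called by edgeR or DESeq2 and 0 had an unadjusted p under 0.05, where 0.103% of genes were called. Interaction values ran from -0.35 for *Smc1b* to 0.52 for *Stag3*, each with a smaller size than 2 times its SE.

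**Figure D4:**
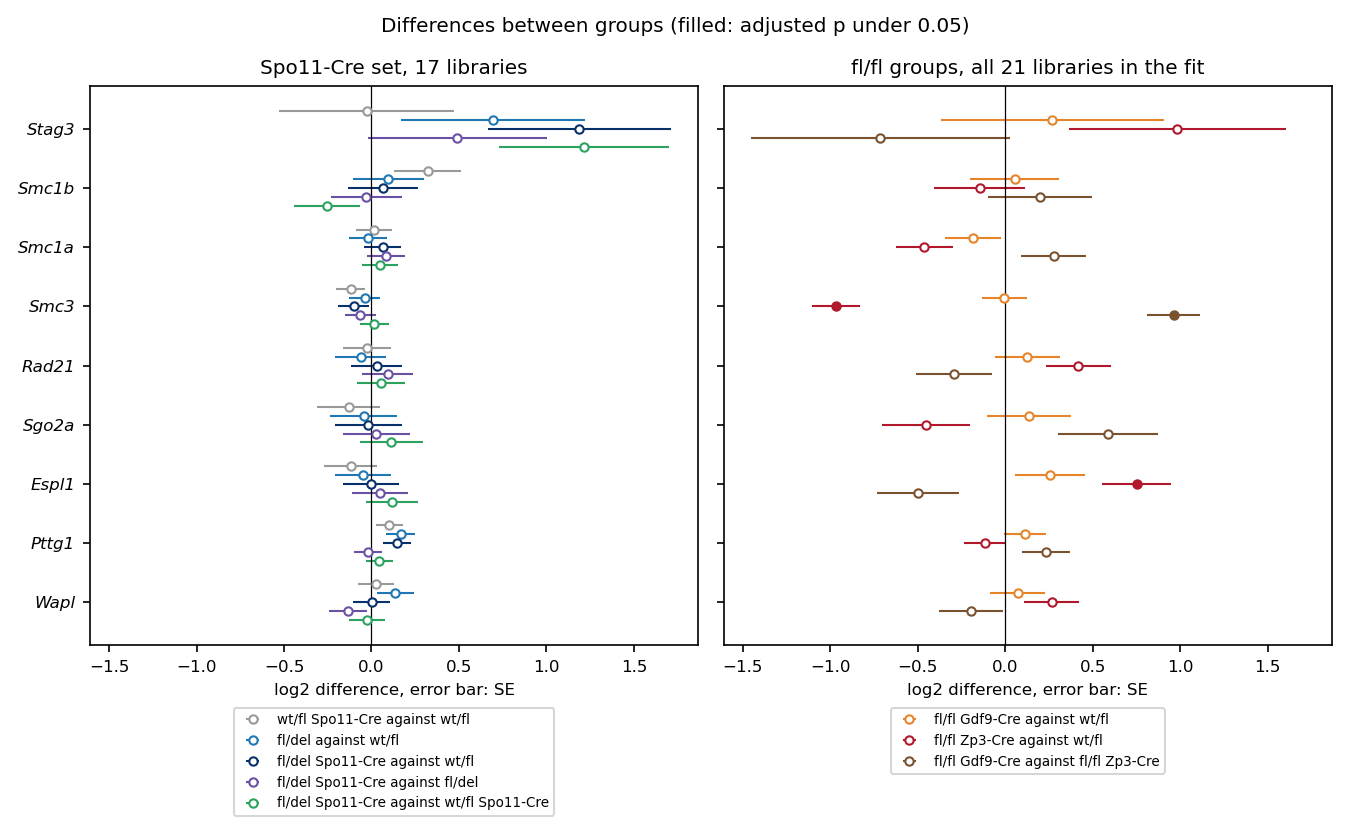
Log2 differences of the 9 tested members on the x axis, with their SE, for 5 comparisons of the 17 libraries (left) and 3 comparisons with fl/fl oocytes of a single driver (right), where filled points passed an adjusted p under 0.05. *Smc3* has filled points at -0.97 and 0.96 and *Espl1* at 0.75 on the right, and no point is filled on the left.

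The second question is whether fl/fl oocytes, which lose both alleles during growth, differed. As the mean of both drivers against wt/fl, *Smc3* was 0.49 ± 0.11 lower on the log2 scale (adjusted p = 0.00308) and was the 1 of 9 members called, where 2.79% of 23225 genes were called. *Espl1* was 0.50 ± 0.16 higher with an adjusted p of 0.0857, and it passed in DESeq2 (adjusted p = 0.0156). Over the 8 fits that left out a library its difference ran from 0.36 to 0.64. *Smc1a* was 0.32 ± 0.13 lower with an adjusted p of 0.204, and *Rad21* 0.27 ± 0.15 higher with an adjusted p of 0.418. The other 5 members had adjusted p-values of at least 0.596. Without Zp3-Cre replicate 1 the difference of *Smc3* was -0.36 with an adjusted p of 0.0752, and in a fit of only the groups compared its adjusted p was 0.0739.

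The mean hides a difference between the drivers. In fl/fl oocytes *Smc3* was 0.96 ± 0.15 higher with Gdf9-Cre on the log2 scale (adjusted p = 5.15e-05), the 1 of 9 members called, where 0.891% of genes were called. Without Zp3-Cre replicate 1 it was still 0.73 higher (adjusted p = 0.0152), with the lone Zp3-Cre library assumed to vary as the other groups do. In a fit of these 4 libraries alone the size was 0.99 and the adjusted p was 0.349. *Sgo2a* was 0.59 ± 0.29 higher and *Espl1* 0.50 ± 0.23 lower with Gdf9-Cre, with adjusted p-values of 0.665 and 0.620. When replicate 2 of Zp3-Cre was left out, *Smc1a* was called as well (0.78, adjusted p = 0.0242), from replicate 1 alone.

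Comparisons of each driver with wt/fl, and with fl/del Spo11-Cre below, were added after the data were seen. They were run in edgeR without alternatives or fits that left out a library. With Gdf9-Cre 0 of 9 members were called and 0 had an unadjusted p under 0.05 in edgeR's test, where 1.48% of genes were called. *Smc3* differed by -0.01 with a 95% interval from -0.26 to 0.25. With Zp3-Cre 2 of 9 were called, where 2.27% of genes were. *Smc3* fell by 0.97 ± 0.14 (adjusted p = 1.97e-06) and *Espl1* rose by 0.75 ± 0.20 (adjusted p = 0.0212). *Smc1a* was 0.46 ± 0.16 lower there and *Rad21* 0.42 ± 0.19 higher, with adjusted p-values of 0.140 and 0.306. The Zp3-Cre libraries had 7801470 and 8188483 counts and 0.315% and 0.331% of mitochondrial transcripts, and the part of library quality in these differences was not tested.

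Against fl/del Spo11-Cre, the other group without an intact allele, the mean of the fl/fl groups had *Smc3* lower by 0.38 ± 0.11 on the log2 scale (adjusted p = 0.0304), the 1 of 9 members called, where 2.9% of genes were called. This call was kept in 1 of 8 fits that left out a library, the one without Zp3-Cre replicate 2, and the adjusted p-values in the other 7 ran from 0.0505 to 0.288. *Espl1* was 0.51 ± 0.16 higher with an adjusted p of 0.0827. With Gdf9-Cre alone 0 of 9 members were called against fl/del Spo11-Cre, with 0 at an unadjusted p under 0.05 and 1.06% of genes called, and *Smc3* was 0.10 ± 0.13 higher. With Zp3-Cre alone 2 of 9 were called, where 3.06% of genes were. *Smc3* fell by 0.86 ± 0.14 (adjusted p = 1.75e-05) and *Espl1* rose by 0.75 ± 0.20 (adjusted p = 0.0161).

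Other genes of the pathway were counted in 4 lists. Of 14 other cohesin subunits and regulators, 1 was called by edgeR in wt/fl Spo11-Cre against wt/fl, where 2.19% of all genes were called. In the other 7 comparisons between groups 0 of the 14 were called by edgeR, where 0.0223% to 2.9% of all genes were. Between 0 and 4 of the 14 had an unadjusted p under 0.05 there, and between 0 and 2 were called by DESeq2. The 1 gene called by edgeR was *Esco2*, an acetyltransferase of SMC3. It rose by 0.34 ± 0.09 on the log2 scale (adjusted p = 0.0220), from 315 ± 25.5 to 392 ± 24.1 CPM (SD, n = 4 and n = 5). The call was kept in 5 of 9 fits that left out a library, and was lost when libraries with a shared name prefix were summed (adjusted p = 0.0679). Of 16 genes that protect centromeric cohesion, among them other shugoshins and subunits of protein phosphatase 2A, 1 was called in the same comparison, the scaffold subunit *Ppp2r1a*, which fell by 0.41 ± 0.11 (adjusted p = 0.0380, kept in 4 of 9). In the other 7 comparisons 0 of the 16 were called by edgeR, with between 0 and 4 at an unadjusted p under 0.05 and between 0 and 2 called by DESeq2. In that comparison the medians were -0.04 for the cohesin list and -0.16 for the protection list, against 0.03 for all genes.

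The anaphase promoting complex, which acts on securin, had 4 of 18 genes called in wt/fl Spo11-Cre against wt/fl, all lower, where 2.19% of all genes were called, 297 of them lower and 194 higher. DESeq2 called the same 4 and, in the other direction, *Anapc11*. *Fzr1*, its coactivator in GV arrest, fell by 0.54 ± 0.12 (adjusted p = 0.00621), from 122 ± 20.3 to 82.9 ± 12.1 CPM (SD, n = 4 and n = 5). *Cdc20*, its coactivator at anaphase, fell by 0.38 ± 0.10 (adjusted p = 0.0212), and the subunits *Anapc2* by 0.58 ± 0.16 (adjusted p = 0.0337) and *Anapc5* by 0.37 ± 0.11 (adjusted p = 0.0467). *Anapc5* is outside the rule that names 3 genes per list and is given to complete the count. Without wt/fl replicate 2, *Fzr1*, *Cdc20* and *Anapc2* had adjusted p-values of 0.0728, 0.197 and 0.117. Of the 9 fits that left out a library, 8 kept the call of *Fzr1*, 7 that of *Cdc20* and 2 that of *Anapc2*. In fl/del, and in the 3 comparisons of fl/del Spo11-Cre, 0 of 18 were called by edgeR or DESeq2. In these comparisons edgeR called 0.0223% to 0.241% of all genes. Of the 18, those with an unadjusted p under 0.05 numbered 3 against wt/fl in fl/del, and 2, 2 and 1 when fl/del Spo11-Cre was set against wt/fl, fl/del and wt/fl Spo11-Cre in turn. Each of the 4 lower genes had its highest group mean in wt/fl. In fl/del, without Cre, *Fzr1* was at 99.1 ± 19.7 and *Cdc20* at 143 ± 17.5 CPM (SD, n = 4), against 122 and 177 CPM in wt/fl. *Anapc2* was at 23.8 ± 1.02 and *Anapc5* at 122 ± 18.4 CPM there (SD, n = 4), against 32.0 and 135 CPM in wt/fl. Means under that of wt/fl were thus not particular to wt/fl Spo11-Cre.

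In the fl/fl groups as a mean, 3 of the 18 fell against wt/fl. These were *Ube2s*, which extends ubiquitin chains (-0.67 ± 0.11, adjusted p = 2.47e-05), and the subunits *Cdc27* (-0.51 ± 0.11, adjusted p = 0.00173) and *Anapc5* (-0.46 ± 0.13, adjusted p = 0.0352), where 2.79% of all genes were called. The call of *Anapc5* was kept in 3 of 8 fits that left out a library and under 6 of 10 other alternatives. *Cdc27* had the pattern of *Smc3*, at 357 ± 36.7 CPM in wt/fl (SD, n = 4), 366 ± 26.9 CPM with Gdf9-Cre (SD, n = 2) and 194 ± 0.423 CPM with Zp3-Cre (SD, n = 2). Between the drivers it was 0.95 ± 0.15 higher with Gdf9-Cre (adjusted p = 7.05e-05), and the call was kept in 4 of 4 fits that left out a library but lost in a fit of these 4 libraries alone (0.97, adjusted p = 0.292). *Ube2s* was at 219 and 271 CPM with the 2 drivers, against 365 CPM in wt/fl. Against fl/del Spo11-Cre 3 of the 18 fell, where 2.9% of all genes were called. They were *Ube2s* (-0.72 ± 0.11), *Anapc11* (-0.50 ± 0.11, adjusted p = 0.00442) and *Cdc27* (-0.39 ± 0.11, adjusted p = 0.0260). The call of *Cdc27* was kept in 2 of 8 fits that left out a library.

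Among 14 genes of the related condensin and SMC5/6 complexes, 0 were called by edgeR in the 5 comparisons of the Spo11-Cre background or in fl/fl against wt/fl. In these 0.0223% to 2.79% of all genes were called. Between 0 and 4 of the 14 had an unadjusted p under 0.05, and 0 or 1 were called by DESeq2. Between the drivers 3 were higher with Gdf9-Cre, where 0.891% of all genes were called. *Smc2* differed by 1.17 ± 0.23 (adjusted p = 0.00141), *Smc4* by 0.53 ± 0.13 (adjusted p = 0.0175) and *Smc6* by 0.61 ± 0.15 (adjusted p = 0.0220). *Smc2* was at 65.5 and 67.2 CPM with Gdf9-Cre and at 21.5 and 38.3 CPM with Zp3-Cre, where wt/fl ran from 35.7 to 37.2 CPM. Without Zp3-Cre replicate 1 none of the 3 was called, and in a fit of these 4 libraries alone their adjusted p-values were 0.370, 0.911 and 0.835. Against fl/del Spo11-Cre, *Ncapg2* of condensin II rose by 0.58 ± 0.14 in the fl/fl mean (adjusted p = 0.00638). It was the 1 of 14 called, where 2.9% of all genes were called.

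**Figure D5:**
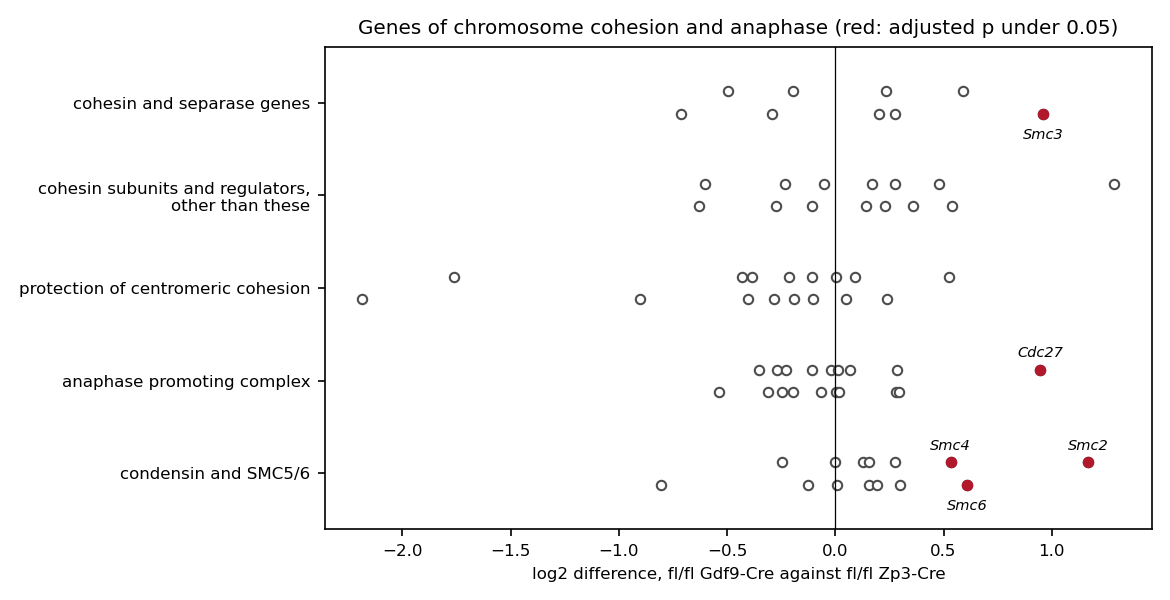
Log2 difference between the Gdf9-Cre and Zp3-Cre fl/fl oocytes on the x axis for the 9 tested members (top) and the genes of the 4 lists, with 1 point per gene and points in red for an adjusted p under 0.05. *Smc3* at 0.96, *Cdc27* at 0.95, *Smc4* at 0.53, *Smc6* at 0.61 and *Smc2* at 1.17 are the red points, all on the side of Gdf9-Cre.

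Of the oocyte markers 3 of 12 were called in wt/fl Spo11-Cre against wt/fl, where 2.19% of all genes were called. *Nobox* was 0.42 ± 0.09 and *Zp1* 0.30 lower and *Ooep* 0.33 higher, beside the lower *Fzr1* and *Cdc20*. Of 9 fits that left out a library, 9 kept the call of *Nobox*, 3 that of *Zp1* and 5 that of *Ooep*. In the fl/fl mean 2 of 12, *Zp1* and *Zp3*, fell against wt/fl, beside the lower *Smc3*, where 2.79% of all genes were called. These calls were kept in 5 and 4 of 8 such fits, and DESeq2 also called *Ooep*, as higher. Against fl/del Spo11-Cre 1 of 12, *Zp3*, fell, where 2.9% of all genes were called, and DESeq2 also called *Oosp1*, as higher. Of the follicle cell markers 13 were tested in the 17 libraries and 14 in the 21, and 0 were called by edgeR or DESeq2 in any comparison. Over all genes edgeR called 0.0223% to 2.9%. Between 1 and 6 of the follicle cell markers had an unadjusted p under 0.05. Apart from *Cyp19a1*, *Nr5a2* and *Kitl*, these markers each averaged at most 1.20 CPM over the 21 libraries, so the medians below rest mostly on low counts. The median of their differences was -1.15 in wt/fl Spo11-Cre against wt/fl (6 of 13 under 0.05, 0.03 over all genes), the comparison in which *Esco2*, *Ppp2r1a* and the 4 genes of the anaphase promoting complex were called. It was -1.16 in fl/del Spo11-Cre against wt/fl (5 of 13, 0.01 over all genes), 0.89 between the drivers (1 of 14, 0 over all genes) and 1.04 in the fl/fl mean against fl/del Spo11-Cre (2 of 14, -0.07 over all genes). Their summed level was 84.2 to 127 CPM in wt/fl, 73.5 to 102 CPM in wt/fl Spo11-Cre, 102 to 117 CPM in fl/del and 95.1 to 114 CPM in fl/del Spo11-Cre. It was 85.8 to 119 CPM with Gdf9-Cre and 96.3 to 125 CPM with Zp3-Cre, so that the groups overlapped. *Foxl2* and *Ptx3* were at 0 in every library. The part of these markers in the results above was not tested.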

How the data were processed

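The authors used fastp to trim reads of 150 bases and HISAT2 2.2.1 to align them to GRCm38, and they counted uniquely mapped reads per gene of Ensembl release 93 with featureCounts 2.0.3. Libraries came from full-length cDNA amplified over 13 cycles by a kit that does not mark strand. The deposited counts are whole numbers without normalization, and the deposited TPM values were computed by the authors by a method not given in the sources used here. Counts in the all-exon table were 1.95 times those of the table with *Kif11* counted over exon 22 (median over genes with a mean count of at least 100), and the former were used. The exon 1 table was not used here.

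CPM were computed here from the counts and the library total, with mean and SD per group. Symbols came from the GENCODE annotation of GRCm38 and were found for 54079 of 54232 genes. Genes counted in 3 or more libraries of a fit were fitted with edgeR 4.0.16 (R 4.3.3), TMM library sizes and the quasi-likelihood test. The 17 libraries of the 4 groups without the fl/fl genotype shared a fit, and comparisons with fl/fl oocytes used all 21. A gene was called at a Benjamini-Hochberg adjusted p under 0.05 over all genes tested. SE were obtained from the log2 difference and its F value. The code was tested on simulated data. Alternatives were DESeq2 1.42.0, RLE sizes, other filters, the second count table, fits of other library sets, sums of libraries with a shared name prefix, a replicate block, and each library left out. Of the list genes up to 3 per list and comparison are named, those with the smallest adjusted p. The members and lists were chosen with earlier results of these data known. Members other than *Rec8* had 12 to 46196 counts per library, and intervals cover counting error or the spread between libraries only. Groups follow the labelled genotype and driver. Same-numbered libraries of different groups showed little shared deviation, and the numbers were not taken as pairs in the main fits.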

Additional observations from a re-analysis of the deposited data

Results flagged for a closer look

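For 41 pairs of a gene (a member or *Kif11*) and a group of 4 or 5 libraries, the highest and the lowest value were each compared with the nearest neighbour (Dixon's gap over range, critical values 0.829 for 4 and 0.710 for 5 libraries), and 3 values lay past the limit. Chance gives about 1 in 20 such pairs. *Rec8* in wt/fl Spo11-Cre replicate 2 was at 0.767 CPM, where the other 4 libraries were at 0. *Smc1a* in fl/del replicate 3, the shallowest library of the series, was at 142.3 CPM, and the other 3 stood between 108.9 and 111.7 CPM (gap over range 0.914). *Pttg1* in wt/fl replicate 3 was at 2094 CPM, and the other 3 between 1958 and 1980 CPM (gap over range 0.837). No call of *Smc1a* or *Pttg1* rested on these libraries, since 0 members were called in the comparisons of fl/del and wt/fl with or without them. For *Smc3* in fl/fl against wt/fl, the call held without wt/fl replicate 3.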

How the results depend on the processing

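In the 5 comparisons of the Spo11-Cre background and the interaction, 0 of 9 members were called under every alternative run. Against wt/fl the fl/fl mean had 1 member called, which became 2 with DESeq2, 0 in a fit of only the groups compared, 0 with Gdf9-Cre alone and 2 with Zp3-Cre alone, and 0 to 3 when a library was left out. Between the drivers the 1 call became 0 in a fit of only the groups compared and 1 to 2 when a library was left out. Against fl/del Spo11-Cre the 1 call became 2 with DESeq2, 0 in a fit of only the groups compared, 0 with libraries of a shared name prefix summed, 0 with Gdf9-Cre alone and 2 with Zp3-Cre alone, and 0 to 3 when a library was left out. The fits of fewer libraries have fewer degrees of freedom, and for the rest the cause was not tested. With Gdf9-Cre alone against fl/del Spo11-Cre the sign of *Smc3* turned to 0.0999621 and that of *Cdc27* to 0.0819556 on the log2 scale. Where an arm was left with 1 library, it was assumed to vary like the other groups.

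Of 1246 values of single members under an alternative, 1223 kept their call or were uncalled both times. Among these 1223, 98 changed sign with neither value called. Of the rest, 13 lost a call, all 13 of *Smc3*, 9 gained one and 1 call turned its sign. Of 507 such values of *Kif11* and the named list genes, 410 stayed on their side of the threshold, 96 lost a call and 1, that of *Cdc27*, turned its sign. Of 135 levels as percent of wt/fl, 128 moved by less than the spread between libraries of their group. These 128 hold the largest moves, 17.98 percentage points with the exon 22 table and 15.31 with TMM sizes. The others were *Smc1b* with Gdf9-Cre at 103.735% with TMM sizes, 107.662% in TPM and 106.387% in the exon 22 table, *Smc1b* with Zp3-Cre at 90.3041% with TMM sizes, *Smc1a* with Gdf9-Cre at 87.9221% with TMM sizes and 91.092% in TPM, and *Smc3* with Gdf9-Cre at 99.6427% with TMM sizes.

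Whether replicate numbers stand for pairs was not settled, since the rate of such matches by chance was not computed. Deviations of same-numbered libraries correlated at a median of 0.0223 (24 pairs, -0.164 to 0.157) and those of other numbers at -0.00564 (84 pairs), and 6 of 16 libraries correlated best with their own number. With the number as a replicate block, members called stayed at 0 in the 5 Spo11-Cre comparisons and at 1 in the 3 fl/fl ones, while calls over all genes went from 491, 5, 44, 54 and 8 to 454, 96, 230, 143 and 29, from 647, 207 and 673 to 824, 304 and 785, and from 23 to 96 for the interaction. Over all alternatives other than leaving out a library, the block included, calls over all genes ran from 252 to 931, 2 to 96, 29 to 230, 37 to 143 and 4 to 39 in the Spo11-Cre comparisons, from 233 to 1075, 7 to 381 and 247 to 1065 in the fl/fl ones, and from 2 to 96 for the interaction. When a library was left out they ran from 179 to 575, 1 to 18, 30 to 71, 37 to 60 and 3 to 12, and from 303 to 1353, 127 to 398 and 416 to 1263. With 12 to 74 counts per library, *Stag3* had the widest intervals of the members, and *Rec8* could not be tested.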

Other observations

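*Sgo2b*, a paralog of *Sgo2a* that shares only 2 of its 6906 stretches of 100 bases, was at 25.3 ± 3.09 CPM in wt/fl (SD, n = 4) and 25.8 ± 3.33 CPM in wt/fl Spo11-Cre (SD, n = 5). It was at 20.3 ± 3.09 CPM in fl/del and 19.4 ± 2.08 CPM in fl/del Spo11-Cre (SD, n = 4 each), or 80.4% and 76.8% of wt/fl. The gene belongs to the list of 16 protectors of centromeric cohesion, of which 0 were called in these comparisons, and the values were picked after they were seen.

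*Esco2*, which rose in wt/fl Spo11-Cre, was also at 383 ± 23.9 CPM in fl/del Spo11-Cre (SD, n = 4), against 313 ± 43.9 CPM in fl/del (SD, n = 4) and 315 ± 25.5 CPM in wt/fl (SD, n = 4). It was at 472 ± 8.03 CPM with Gdf9-Cre and 345 ± 75.0 CPM with Zp3-Cre (SD, n = 2 each). The groups with Cre thus had the higher means, a grouping made after the values were seen. The lower Zp3-Cre library, at 292 CPM, was below the lowest wt/fl library, at 297 CPM. In the comparisons counted above edgeR called *Esco2* in wt/fl Spo11-Cre against wt/fl only, and DESeq2 also between the drivers, as higher with Gdf9-Cre. No test compared all groups with Cre against those without.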
